A study of Mus musculus with 2 samples.

Results

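Myeloid cells carry inhibitory receptors on their surface and the phosphatases that these receptors recruit in the cytoplasm. The 10 genes described here are 7 receptors (Sirpa, Lilrb4a, Pirb, Cd300a, Cd33, Cd300lf and Siglece) and 3 phosphatases (Ptpn6, Ptpn11 and Inpp5d), chosen by name from 21461 nuclear protein-coding genes measured in total RNA of mouse cells. Primary cells labelled megakaryocyte were taken from male adult mice of the C57BL/6J strain at 5 to 6 weeks of age. They came from bone marrow, per the title of the isolation protocol. Ribosomal RNA was depleted and 2 libraries, given as biological replicates 1 and 2, were made from 100 ng of RNA each with the ScriptSeq kit. The labels give different fragment size ranges, 221 to 1000 bases for library 1 and 200 to 1000 bases for library 2. Both carry a single donor identifier in the labels, so whether they came from separate animals is not stated, and their spread may be partly technical. They form a single group with no control, so genes were compared with each other and library 1 was set against library 2.

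Most of these receptors share a short tyrosine motif in their cytoplasmic tail, the immunoreceptor tyrosine-based inhibitory motif (ITIM). When the receptor binds its ligand, Src-family kinases phosphorylate the tyrosine, and the SH2 domains of the phosphatases SHP-1 (Ptpn6), SHP-2 (Ptpn11) or SHIP1 (Inpp5d) dock there. SHP-1 and SHP-2 then remove phosphate from signalling proteins, and SHIP1 removes it from the membrane lipid that PI3-kinase makes. In neutrophils, monocytes and macrophages this raises the threshold for phagocytosis, degranulation and cytokine release. Many of the receptors sit in gene clusters beside close relatives that lack the motif and signal through the adaptors DAP12 (Tyrobp) or Fc receptor gamma (Fcer1g).

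The cell type label was checked against marker genes. Of 14 megakaryocyte markers, 0 reached 10 TPM (a transcript level scaled by length and by library) in both libraries and 11 were under 1 TPM in both. The platelet glycoprotein genes Gp5 and Gp6 had 0 counts in both, and a limit of 3 counts puts Gp6 at no more than 0.0323 TPM in library 1 and 0.0287 in library 2. All 13 neutrophil markers and 9 of 10 monocyte markers stood at 10 TPM or more in both libraries, as did 5 of 6 basophil, eosinophil and mast cell markers and 4 of 6 dendritic cell markers. Summed over the lists, megakaryocyte markers came to 10.6 and 12.2 TPM, neutrophil markers to 14633 and 13886 TPM, monocyte markers to 7809 and 10204 TPM, basophil, eosinophil and mast cell markers to 263 and 283 TPM, and dendritic cell markers to 122 and 155 TPM in libraries 1 and 2. The marker levels go against the label, so the samples are called the libraries labelled megakaryocyte. Summed expected counts over all rows were 42703213 in library 1 and 50532821 in library 2. In bulk RNA, a larger share of cells of a type and more RNA per cell cannot be told apart.

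Most of these receptors, though not all, held tail motifs. The coding DNA of those found in the 3 receptors with the highest levels, and in Siglece, is shown first. The pattern searched for ITIM was isoleucine, valine, leucine or serine, any residue, tyrosine, any 2 residues, then isoleucine, leucine or valine. The related ITIM-like pattern begins with threonine and ends with isoleucine or valine. Each sequence is 18 bases of mm10 read 5′ to 3′ on the coding strand, taken from GENCODE M21 coding sequences, and the capitals mark the tyrosine codon.
Sirpa, ITIM, chr2:129629954-129629971, plus strand: atcacaTACgcagacctg
Sirpa, ITIM-like, chr2:129630026-129630043, plus strand: acagaaTATgcaagcatt
Sirpa, ITIM, chr2:129630077-129630094, plus strand: ctcaccTATgctgacctg
Sirpa, ITIM, chr2:129630149-129630166, plus strand: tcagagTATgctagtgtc
Lilrb4a, ITIM, chr10:51496021-51496038, plus strand: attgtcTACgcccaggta
Lilrb4a, ITIM, chr10:51496194-51496211, plus strand: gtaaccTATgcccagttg
Pirb, ITIM, joined across an intron in chr7:3713862-3714103, minus strand: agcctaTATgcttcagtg
Pirb, ITIM, chr7:3712786-3712803, minus strand: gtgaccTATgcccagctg
Pirb, ITIM, chr7:3712696-3712713, minus strand: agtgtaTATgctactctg
Siglece, ITIM, chr7:43651585-43651602, minus strand: atacatTATgcgaccctc
Siglece, ITIM-like, chr7:43651516-43651533, minus strand: acggagTACtcagagata

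In all, 16 such windows were found in 6 of the 7 receptors, 13 of them ITIM and 3 ITIM-like. Cd300a held 2 and Cd300lf 3, beside the 4 of Sirpa, 3 of Pirb, 2 of Lilrb4a and 2 of Siglece. An alanine codon followed the tyrosine codon in 12 of the 16 windows, including every window of Sirpa, Lilrb4a and Pirb. Tyrosine was written TAT in 12 windows and TAC in 4. No window was found in the tail of Cd33-202, the transcript that held nearly all of the Cd33 level, and its 1 ITIM match lay outside the tail. The other detected coding transcript, Cd33-201, had no residues after the last hydrophobic stretch to search. The tail was taken as the residues after the last hydrophobic stretch of the translated coding sequence. Of 6086 protein-coding genes with such a stretch and a tail of at most 250 residues, 19.8% held at least 1 ITIM pattern and 3.57% at least 2. A single match is thus common, and 2 or more are less so. Of ITIM alone, Sirpa and Pirb held 3 each, Lilrb4a, Cd300a and Cd300lf 2 each and Siglece 1. These receptors were chosen by name, so their counts are a description.

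Transcripts of all 10 genes were detected in both libraries labelled megakaryocyte, over a wide range of levels. The mean level over the 2 libraries was 265 TPM for Ptpn6 at the top and 6.42 TPM for Siglece at the bottom. At 10 TPM or more in both libraries stood 7 of the 10 genes, beside 16.9% of all nuclear protein-coding genes. Ptpn11 passed narrowly, at 10.11 TPM in library 1 and 10.33 TPM in library 2. On annotated coding transcripts only, 6 of the 10 genes reached this threshold, and the share of all genes was not computed that way. Library 1 had a median of 27.0 TPM over the 10 genes and library 2 a median of 23.5 TPM, beside medians of 0.28 and 0.27 TPM over all nuclear protein-coding genes. The lowest rank of any of the 10 was that of Siglece, at percentile 77.5 in library 1 and 73.6 in library 2. Means below are given with their SD over the 2 libraries (n = 2), and the bounds given beside some levels are the authors' deposited TPM bounds, whose confidence level is not stated.

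**Figure D1:**
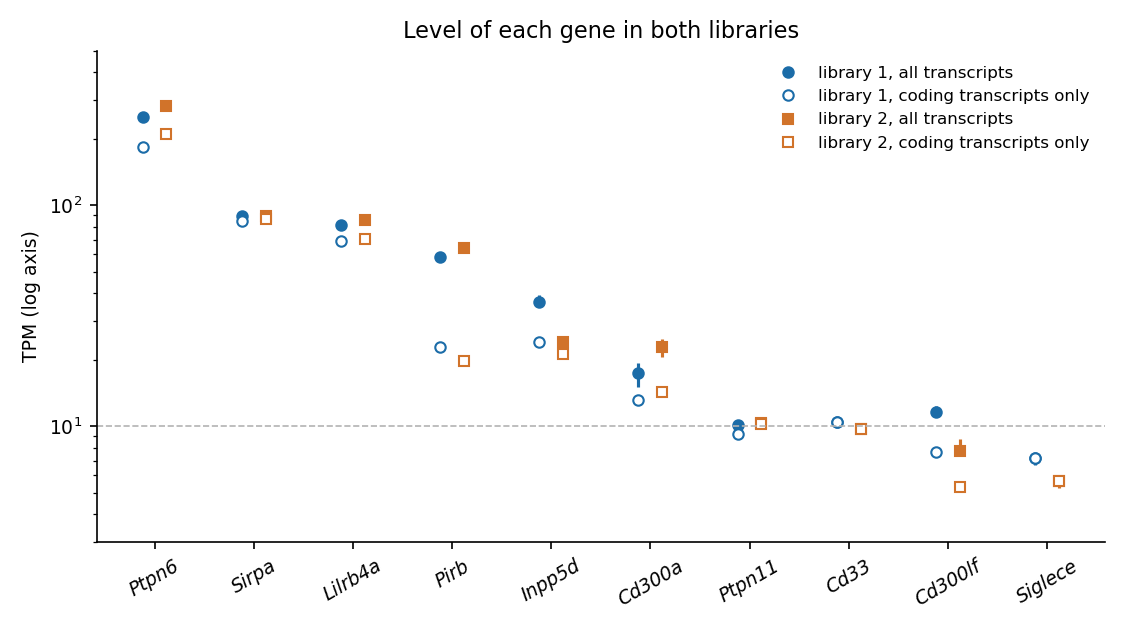
Level of each of the 10 genes in TPM on a log axis, with filled symbols for all transcripts and open symbols for annotated coding transcripts only; circles and squares separate libraries 1 and 2, vertical lines are the authors' TPM bounds and the dashed line is at 10 TPM. Ptpn6 stands alone at the top, Sirpa, Lilrb4a and Pirb follow, and the open symbols of Pirb lie far under its filled ones.

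Among the receptors, Sirpa, Lilrb4a and Pirb were the highest. Sirpa encodes SIRPα, the receptor for the "don't eat me" protein CD47 (chromosome 2, 129592835 to 129632228, plus strand). Sirpa stood at 89.67 TPM in library 1 and 89.30 TPM in library 2 (89.5 ± 0.262), from 23232 and 26419 expected counts. Lilrb4a encodes gp49B, a receptor with immunoglobulin domains known in mast cells, neutrophils and macrophages (chromosome 10, 51490956 to 51496611, plus strand). It stood at 81.16 TPM in library 1 and 85.37 TPM in library 2 (83.3 ± 2.98). Pirb encodes paired immunoglobulin-like receptor B, which binds MHC class I (chromosome 7, 3711409 to 3720391, minus strand). Pirb stood at 58.28 TPM in library 1 and 63.84 TPM in library 2 (61.1 ± 3.93), from 17891 and 21412 counts. The 3 genes kept the order Sirpa, Lilrb4a, Pirb in both libraries, and the libraries' values for the 3 genes did not overlap. Together they held 83.1% of the summed TPM of the 7 receptors in library 1 and 83.8% in library 2.

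The other 4 receptors were lower. Cd300a, a receptor for phosphatidylserine and phosphatidylethanolamine (chromosome 11, 114890041 to 114904654, plus strand), stood at 17.34 TPM in library 1 and 22.96 TPM in library 2 (20.2 ± 3.97). Cd33, a sialic-acid-binding lectin of myeloid cells (chromosome 7, 43524216 to 43544428, minus strand), stood at 10.51 and 9.73 TPM (10.1 ± 0.552) in libraries 1 and 2. Cd300lf, also called CLM-1 and the receptor of mouse norovirus (chromosome 11, 115116214 to 115133992, minus strand), stood at 11.58 and 7.70 TPM (9.64 ± 2.74). Siglece, a sialic-acid-binding lectin of neutrophils and macrophages (chromosome 7, 43651070 to 43660161, minus strand), stood at 7.18 and 5.65 TPM (6.42 ± 1.08). Cd300a was above these other 3 genes in both libraries. Cd33 and Cd300lf changed places between the libraries, so their order was not resolved, while Siglece was the lowest of the 7 in both. On coding transcripts alone, Siglece remained the lowest in library 1, at 7.18 TPM beside 7.63 TPM for Cd300lf, but in library 2 Cd300lf was lower, at 5.31 TPM beside 5.65 TPM for Siglece. Sirpa was 12.5 times Siglece in library 1 and 15.8 times in library 2.

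Ptpn6, the gene of the tyrosine phosphatase SHP-1 (chromosome 6, 124720707 to 124738714, minus strand), was the highest of the 10 genes. It stood at 250.57 TPM in library 1, with bounds of 242 and 265, and at 280.12 TPM in library 2, with bounds of 273 and 300 (265 ± 20.9). It rested on 30852 and 41245 counts and lay at percentile 99.3 of nuclear protein-coding genes in both libraries. Inpp5d, the gene of the lipid phosphatase SHIP1 (chromosome 1, 87620312 to 87720507, plus strand), stood at 36.69 TPM in library 1 and 24.08 TPM in library 2 (30.4 ± 8.92). Ptpn11, the gene of SHP-2 (chromosome 5, 121130533 to 121191397, minus strand), a phosphatase of most cell types that also acts in growth factor signalling, stood at 10.11 and 10.33 TPM (10.2 ± 0.156). The order Ptpn6, Inpp5d, Ptpn11 held in both libraries.

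Ptpn6 was 24.8 times its paralog Ptpn11 in TPM in library 1 and 27.1 times in library 2 (26.0 ± 1.65). Ptpn6 was 6.83 times Inpp5d in library 1 and 11.6 times in library 2. Inppl1, the gene of the broadly expressed relative SHIP2, stood at 3.35 and 3.99 TPM, below Inpp5d in both. The summed TPM of the 7 receptors was 275.72 in library 1 and 284.55 in library 2, which was 1.10 and 1.02 times the TPM of Ptpn6 alone. These ratios compare RNA levels and say nothing of protein.

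Several of these receptors belong to paired families, in which an inhibitory receptor and a motif-lacking relative have similar outer domains and, in some families, the same ligands. The pairs did not stand in a single ratio. Sirpa was above the sum of its relatives Sirpb1a, Sirpb1b and Sirpb1c, whose sums were 27.2 in library 1 and 32.4 TPM in library 2, giving ratios of 3.30 and 2.76. Lilrb4a was 1.71 and 1.89 times Gp49a, its neighbour without an ITIM, which stood at 47.57 TPM in library 1 and 45.18 TPM in library 2. On coding transcripts these ratios were 3.60 and 3.92, but 28.5 and 27.3 TPM of the Gp49a level lay in a transcript that is not in GENCODE M21. Pirb was level with the sum of Pira2 and Lilra6, 57.2 and 66.8 TPM, with ratios of 1.02 and 0.956 that fall on either side of equality. That holds only for the sum over all transcripts: on annotated coding transcripts Pirb had 22.80 TPM in library 1 and 19.74 in library 2, beside 46.3 and 53.8 TPM for its relatives, with ratios of 0.492 and 0.367. Pira2 stood at 30.54 and 33.33 TPM and Lilra6 (Pira3 among its synonyms) at 26.66 and 33.46 TPM. The other 6 Pira genes listed had no row by name and were not analysed here.

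The CD300 family ran the other way. Cd300a and Cd300lf together held 28.9 TPM in library 1 and 30.7 in library 2, below the 37.5 and 39.2 TPM of Cd300lb, Cd300ld, Cd300c and Cd300c2, with ratios of 0.772 and 0.783. Cd300lb, an activating receptor that pairs with DAP12, led these relatives at 24.06 and 22.62 TPM and exceeded each of the members Cd300a and Cd300lf in library 1. In library 2 Cd300a, at 22.96 TPM, stood beside it. On coding transcripts Cd300lb was above Cd300a in both libraries, at 23.74 and 22.01 TPM beside 13.16 and 14.26 TPM. Siglece and Cd33 summed to 17.7 and 15.4 TPM, which was 5.33 and 5.61 times Siglech, a DAP12-linked lectin of plasmacytoid dendritic cells. Cd33, in whose tail no motif was found, held 10.51 and 9.73 TPM of these sums. The ratio is thus not one of motif-bearing to motif-lacking genes. Siglece itself stood at 7.18 and 5.65 TPM, beside 3.32 and 2.74 TPM for Siglech. On coding transcripts the ratios were 13.3 and 16.4 for these lectins and 0.575 and 0.537 for the CD300 family. Relatives with near-identical sequence share reads, which the authors' quantification divides between them, so the levels of Pirb, Lilrb4a, Sirpa and the CD300 genes against their relatives are uncertain to that extent.

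**Figure D2:**
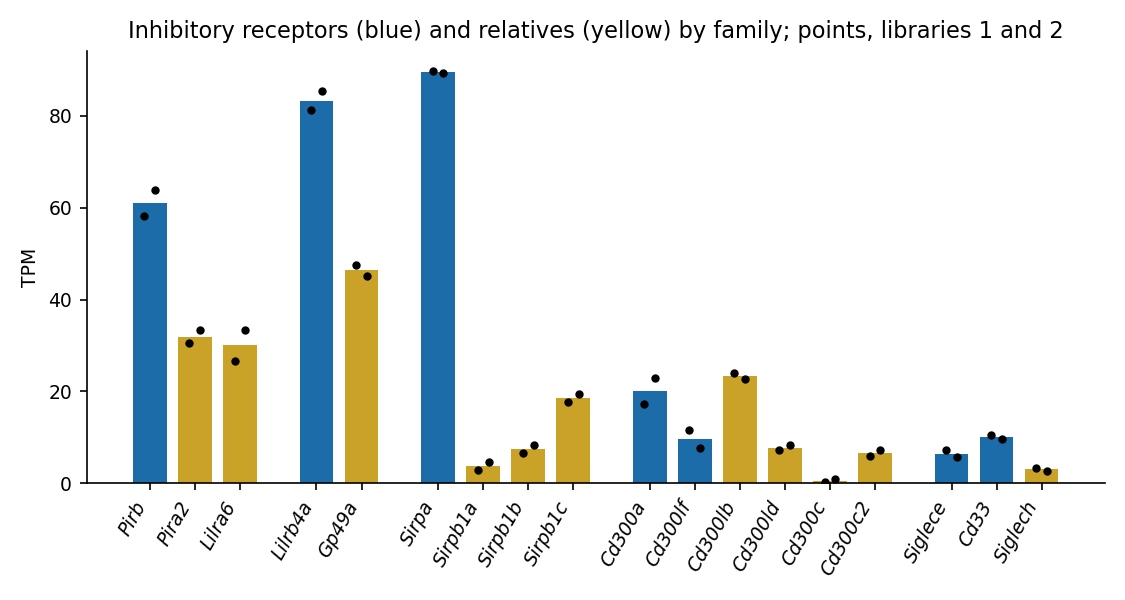
TPM by family, with blue bars for the 7 receptors and yellow bars for their relatives without the inhibitory motif. No tail motif was found in Cd33 either. Bars are means over the 2 libraries and points are the libraries. Sirpa rises far above its relatives. When all transcripts are counted, as here, Pirb stands above each of Pira2 and Lilra6 taken singly. Cd300lb stands above Cd300a in the mean and in library 1, at 24.06 beside 17.34 TPM, and close to it in library 2.

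Gene levels sum over all transcripts of a gene, and in several of these genes part of that sum lay in forms with no annotated protein. For Sirpa, coding transcripts that hold the tail motifs made up 94.2% of the gene's TPM in library 1 and 96.7% in library 2. They were Sirpa-204 (45.8% and 41.8%), Sirpa-209 (24.1% and 22.9%), Sirpa-201 (22.9% and 25.7%) and lesser forms. For Siglece the single transcript Siglece-201 held 100% in both libraries, and for Cd33 the transcript Cd33-202 held 99.6% and 100%. For Lilrb4a the coding transcript Lilrb4a-201 held 84.6% and 82.2%. The remaining 15.4% and 17.8% lay in transcripts that are not in GENCODE M21, so whether they encode the receptor is not known here.

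Pirb differed from these. The coding transcript Pirb-201 held 39.1% of its TPM in library 1 and 30.9% in library 2, while 4 transcripts annotated as retained intron held 60.9% and 69.1%. The highest of them, Pirb-202, held 43.2% and 51.4% of TPM and exceeded Pirb-201 in both libraries, and Pirb-205 held 11.5% and 7.85%. In expected counts the order turned in library 1, with 45.96% for Pirb-201 and 38.05% for Pirb-202. Library 2 kept it, with 37.7% for Pirb-201 and 46.9% for Pirb-202. The retained-intron forms rest on 9668 counts in library 1 and 13340 counts in library 2. Counted on coding transcripts alone, Pirb stood at 22.80 TPM in library 1 and 19.74 TPM in library 2. That is under the 68.63 and 70.14 TPM of Lilrb4a-201 in libraries 1 and 2.

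For Cd300a, the coding forms Cd300a-202 (58.5% and 55.7%) and Cd300a-201 (17.4% and 6.34%) stood beside Cd300a-203, a noncoding transcript of 467 bases with 24.1% of TPM in library 1 and 37.9% in library 2. Because TPM is per length, this short form held only 1.73% and 3.13% of the gene's expected counts. On coding transcripts alone Cd300a was 13.16 and 14.26 TPM, a closer pair of values than the gene level gave. For Cd300lf the split among coding forms differed sharply by library. Cd300lf-203 held 46.1% in library 1 and 5.06% in library 2, while Cd300lf-201 held 0% and 36.8%, and Cd300lf-202 held 19.9% and 27.0%. The authors' bounds for Cd300lf-201 were at most 0.423 TPM in library 1 and from 1.92 to 3.38 TPM in library 2, and for Cd300lf-203 they ran from 4.52 to 5.95 and from 0.079 to 1.09. All 3 coding forms hold the same 3 tail motifs, so the split does not bear on the motifs. The noncoding Cd300lf-206 held 24.1% and 29.4% of TPM, and 45.3% and 49.0% of the gene's expected counts.

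**Figure D3:**
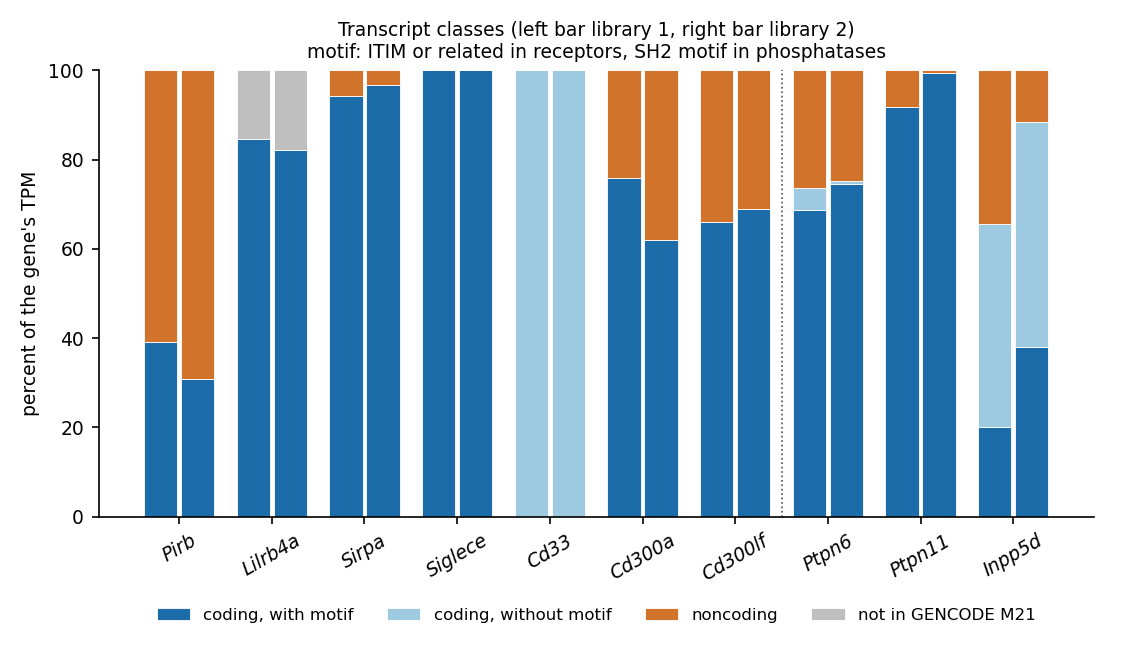
Percent of each gene's TPM in coding transcripts with the motif (an ITIM or ITIM-like window for receptors, the SH2 motif for phosphatases), coding transcripts without it, noncoding transcripts and transcripts not in GENCODE M21, with library 1 at left and library 2 at right in each pair of bars. Pirb is mostly noncoding, Cd33 is coding without the motif, and Inpp5d has its largest class in coding transcripts without the SH2 motif.

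Among the phosphatases, transcripts were sorted by a motif of the docking domain. Many SH2 domains hold a phenylalanine, leucine, valine, arginine (FLVR) motif whose arginine contacts the phosphate, and it was searched in each coding transcript. The search takes these exact letters, so it misses a domain that varies from them and does not show that a domain is whole. In Ptpn6, coding transcripts with the motif, each with 1 match, held 68.8% of TPM in library 1 and 74.6% in library 2. Ptpn6 has a distal and a proximal start, and in human cells the proximal start is the form known from blood cells. Here the distal-start coding transcripts summed to 46.8% and 51.8%, of which Ptpn6-210, with 556 residues and its start at 124738584, held 44.0% and 49.7%. The proximal-start transcript Ptpn6-202, with 595 residues and its start at 124733154, held 22.0% and 22.8%. Counts ran the same way, with 18237 and 25290 for the distal forms and 11006 and 14422 for the proximal form. The assignment rests on how the authors' quantification divided the reads that these overlapping forms share. Ptpn6-204, a retained-intron transcript of 421 bases, held 26.4% and 24.9% of TPM on 4.30% and 3.62% of the counts.

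In Inpp5d, the forms with and without the SH2 motif were both abundant. Coding transcripts with it held 20.1% of TPM in library 1 and 38.0% in library 2, led by Inpp5d-210 (13.7% and 30.6%), which starts at 87620312 and encodes 1191 residues. Coding transcripts without it held 45.4% and 50.4%, led by Inpp5d-211 (30.3% and 34.8%, 867 residues) and Inpp5d-208 (15.2% and 15.7%, 928 residues), which both start downstream at 87676239. Inpp5d-203, a retained-intron form of 364 bases, held 28.7% and 6.26% of TPM but only 154 and 23.1 counts, or 1.51% and 0.225% of the gene's counts. The part of the libraries' different size ranges in such short forms was not tested. It moves the gene level: on coding transcripts alone Inpp5d stood at 24.05 TPM in library 1 and 21.29 TPM in library 2. In Ptpn11, the coding forms Ptpn11-202 (68.3% and 71.3%) and Ptpn11-201 (23.3% and 28.1%) both hold the motif.

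**Figure D4:**
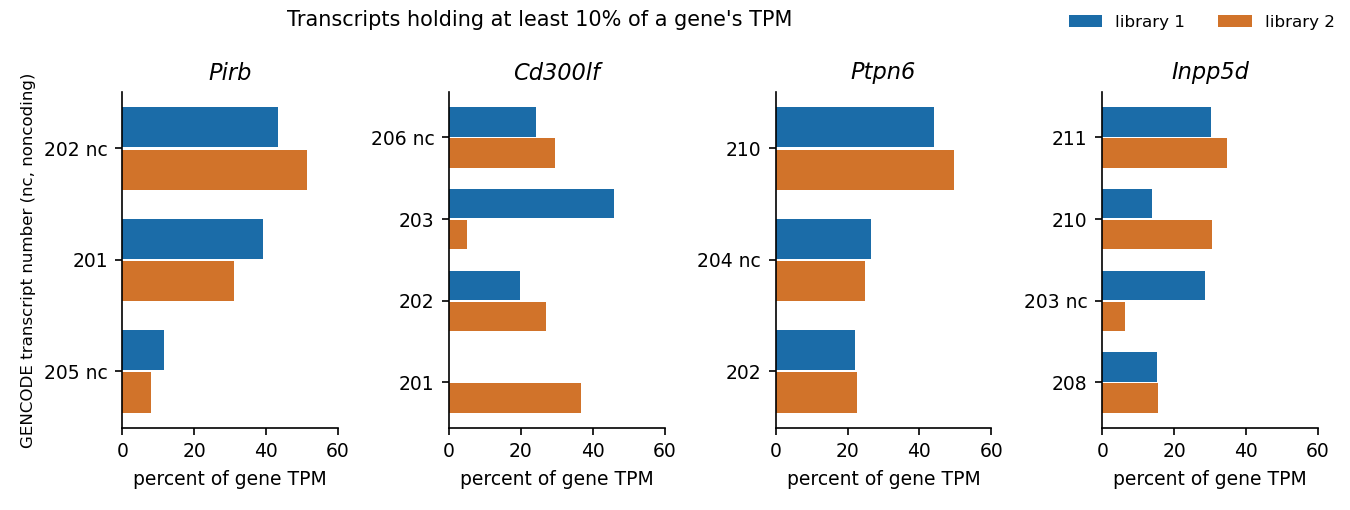
Percent of gene TPM in each transcript that held at least 10% in either library, for Pirb, Cd300lf, Ptpn6 and Inpp5d, with library 1 above library 2 in each pair of bars and noncoding forms marked nc. The Cd300lf-203 and Cd300lf-201 bars exchange places between the libraries, while the order in Ptpn6 is the same in both.

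The libraries were then compared gene by gene. For each gene, an exact binomial test (two-sided) asked whether its rounded expected counts split between the libraries as their scaled sizes do, and p-values were adjusted over 12081 genes by the Benjamini-Hochberg method. This test covers counting error only and compares the 2 libraries, not conditions. It called 8 of the 10 genes at an adjusted p of 0.05, beside 65.6% of all genes tested, and most genes of any kind passed it. Called higher in library 1 were 5 (Sirpa, Siglece, Cd33, Cd300lf and Inpp5d) beside 32.6% of all genes, and called higher in library 2 were 3 (Cd300a, Ptpn6 and Ptpn11) beside 33.1%. In scaled counts no gene of the 10 reached a ratio of 1.5-fold, while 16.5% of all genes were called with at least that ratio. In TPM over all transcripts, Inpp5d and Cd300lf lay just past it, at 1.524-fold and 1.504-fold.

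The largest difference was that of Cd300lf, with 2286 counts in library 1 and 1945 in library 2. Its log2 ratio of library 1 over library 2 was 0.48 after scaling, with a 95% counting interval from 0.39 to 0.57 (adjusted p = 7.02e-26, exact binomial test). Siglece followed with 1170 and 1038 counts and a log2 ratio of 0.42 (0.30 to 0.54). Inpp5d had 10196 and 10269 counts and a log2 ratio of 0.24 (0.20 to 0.28), and Cd33 2385 and 2496 counts and 0.18 (0.10 to 0.26). Sirpa was called at a log2 ratio of 0.06 (0.04 to 0.09), a size that its depth makes detectable. Ptpn6 was lower in library 1 at a log2 ratio of -0.17 (-0.19 to -0.15). Ptpn11 and Cd300a were lower in library 1 at -0.08 (-0.13 to -0.02) and -0.07 (-0.12 to -0.02). Pirb at -0.013 (adjusted p = 0.4505) and Lilrb4a at 0.0026 (adjusted p = 0.9227) were not called by the exact binomial test.

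With edgeR's exact test at an assumed biological coefficient of variation of 0.1, 0 of the 10 genes were called and 1, Cd300lf, had an unadjusted p under 0.05, beside 12.9% of all genes called. The 2 libraries also differed in marker levels. By the exact binomial test, 10 of 13 neutrophil markers were called higher in library 1 and 8 of 10 monocyte markers higher in library 2. Of all genes tested, 32.6% were called higher in library 1 and 33.1% higher in library 2. T and NK cell markers had a summed TPM of 31.3 in library 1 and 17.8 in library 2, and 6 of 6 were called higher in library 1. Erythroid markers summed to 112 and 53.9 TPM. The part of these cell types in the differences of the 10 genes was not tested. In TPM, Inpp5d and Cd300lf differed more than in counts. On coding transcripts alone the log2 TPM ratio of library 1 over library 2 was 0.18 for Inpp5d, against 0.61 over all its transcripts, and 0.52 for Cd300lf, against 0.59.

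**Figure D5:**
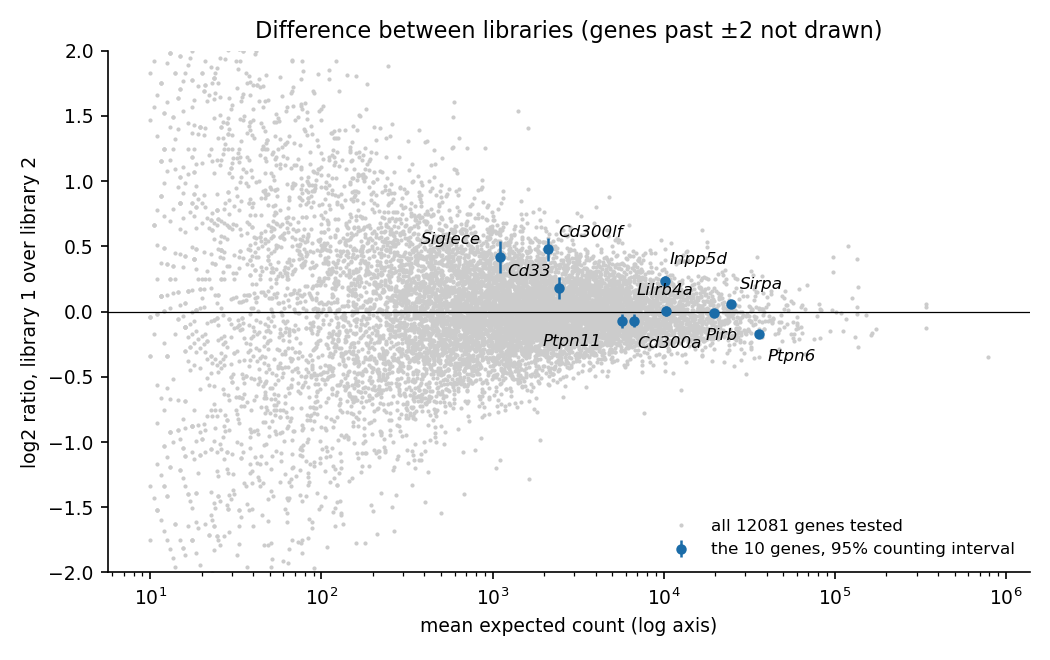
Log2 ratio of library 1 over library 2 against mean expected count on a log axis for all 12081 genes tested (grey) and the 10 genes described (blue, with 95% counting intervals). All 10 lie between -0.17 and 0.48, inside the cloud of other genes.

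Other genes of the pathway were taken from fixed lists. Their calls by the exact binomial test stand beside 32.6% of all genes called higher in library 1 and 33.1% higher in library 2. Of 19 other inhibitory receptors with a row, 8 stood at 10 TPM or more in both libraries and 6 under 1 TPM in both, with medians of 4.22 and 4.00 TPM. Gp49a, which the list had also held, was left out of these counts because it is treated above as the relative of Lilrb4a without an ITIM. The tail motif was not looked up in the other genes of this list, so they are not known here to hold it. The highest were Clec12a, a lectin receptor for uric acid crystals, at 104.15 and 115.08 TPM, Clec4a2, a lectin of dendritic cells and monocytes, at 63.82 and 73.29 TPM, and Milr1, the mast cell receptor allergin-1, at 50.71 and 64.96 TPM. Clec12a thus exceeded Sirpa, the highest of the 7 receptors described. Mpig6b, an inhibitory receptor of the megakaryocyte lineage, had 0 counts in both libraries. Between libraries, 5 of the 16 tested were called higher in library 1, 4 higher in library 2 and 7 were not called.

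The activating side was present too. Of 17 activating counterparts, 7 stood at 10 TPM or more in both libraries, and 3 were called higher in library 1, 10 higher in library 2 and 4 not called. The adaptor Tyrobp stood at 361.86 TPM in library 1 and 471.07 TPM in library 2 and Fcer1g at 263.29 and 273.29 TPM, each of the order of Ptpn6. The third adaptor, Hcst, the DAP10 gene, stood at 2.92 and 2.72 TPM.

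Kinases that act on these motifs, bind them or regulate those that do were measured as 11 genes, 6 of them at 10 TPM or more in both libraries. The Src-family kinase Lyn stood at 82.43 and 94.81 TPM, and Syk, which binds activating motifs, at 44.30 and 43.17 TPM. Of the 10 tested, 5 were called higher in library 1, against 4 in library 2. Of 14 other phosphatases, 10 stood at 10 TPM or more in both libraries, led by the transmembrane phosphatase CD45 (Ptprc) at 195.29 and 193.47 TPM, Ptpn18 at 103.17 and 117.45 TPM and Ptpn1 at 35.24 and 40.32 TPM. Ptpn6 exceeded each of these 14, and in 6 of them the call was higher in library 1, in another 6 higher in library 2.

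Among 7 ligand genes of the receptors, 6 stood at 10 TPM or more in both libraries. B2m, a chain of the MHC class I molecules that Pirb binds, stood at 754.69 and 748.31 TPM and H2-D1, a class I heavy chain, at 259.93 and 307.54 TPM. Fn1, the fibronectin gene and a ligand of gp49B, stood at 342.18 and 310.09 TPM, and Cd47 at 35.16 and 35.74 TPM, below Sirpa. Called higher in library 1 were 3 of these 7, and called higher in library 2 another 3. Of 15 adaptors, 7 stood at 10 TPM or more in both, led by Skap2, which binds SIRPα complexes in macrophages, at 62.72 and 82.50 TPM, Fyb at 33.19 and 29.10 TPM and Grb2 at 31.04 and 19.05 TPM. Of these adaptors, 9 were called higher in library 1, against 3 in library 2.

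The promoters of the 10 genes were searched for the letters GAGGAAGT on either strand, a core site of PU.1, the transcription factor of myeloid cells. Windows ran from 250 bases before to 50 after the gene start, in RefSeq sequences on GRCm38.p6, and 8 of the 10 genes had an entry. The letters were in 3 of the 8, and in 3.2% of 32851 promoters of the same length. The match with its flanks is shown for these 3, with the site in capitals.
Inpp5d, chr1:87620272-87620319, plus strand: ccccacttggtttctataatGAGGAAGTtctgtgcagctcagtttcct
Pirb, chr7:3720475-3720522, minus strand: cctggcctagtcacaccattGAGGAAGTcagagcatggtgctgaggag
Cd300lf, chr11:115133965-115134012, minus strand: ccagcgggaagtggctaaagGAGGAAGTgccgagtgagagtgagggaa
These letters describe the sequence and are not evidence of binding. The 3 genes differ in level, with Pirb at 61.1, Inpp5d at 30.4 and Cd300lf at 9.64 TPM, and the levels of the other 5 genes searched, which include Ptpn6 and Siglece, span a wider range.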

How the data were processed

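The deposited tables give 1 row per gene or transcript for each library. The authors' reads were mapped to mm10 with GENCODE M4, per the deposited text files. The aligner and quantifier are not given in the sources used here. Deposited expected counts are estimated, not normalized. Deposited TPM, and the TPM bounds of unstated level, are per length over all rows. The percent of a gene's TPM per transcript was deposited by the authors. Deposited FPKM values and effective lengths were not used in tests. Summed expected counts were 42703213 and 50532821.

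Symbols and coordinates came from GENCODE M21 on the same build, by ID without version. Lilrb4a had no row under its M21 gene ID and was found through the transcript Lilrb4a-201, in a row that holds 2 further transcripts. Expected counts were rounded and scaled by TMM (edgeR 4.0.16, R 4.3.3). Genes averaging 10 counts or more were tested with a two-sided exact binomial test, with Benjamini-Hochberg adjustment, after a check on simulated counts. The simulated counts held counting error only, as the test assumes, so the check cannot show how the test fares when libraries vary otherwise. Alternatives were DESeq2 1.42.0 size factors, total counts, other filters, edgeR's exact test, posterior mean TPM, coding transcripts only and each library left out. Intervals and limits hold counting error alone: without molecular identifiers, reads are not separate molecules. The text names all 10 genes, the 3 highest of each pathway list, relatives of the receptors and transcripts at 10% or more of a gene. Some genes that this rule takes are not reported here. Further genes named (Mpig6b, Cd47, Inppl1 and markers) were chosen after their values were seen. The 10 genes and the lists were chosen with earlier results of these data known.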

Additional observations from a re-analysis of the deposited data

How the results depend on the processing

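Counting annotated coding transcripts only lowered the median of the 10 mean levels to 17.5 TPM, against 25.3 TPM over all transcripts, and the ratio of Ptpn6 to Ptpn11 to 20.2, against 26.0. It moved 7 of the 10 gene levels by the SD between libraries or more, among them Pirb to 21.3 TPM and Ptpn6 to 197 TPM. That number follows the SD and not the size of the change. Sirpa counted as moved from 89.5 to 85.4 TPM, but Inpp5d, from 30.4 to 22.7 TPM, did not. The fall of Lilrb4a to 69.4 TPM rests on transcripts that are not in GENCODE M21. Chosen after seeing the data, counting coding transcripts only in the family ratios moved the mean for Pirb over its relatives to 0.43, against 0.99 over all transcripts. It moved the mean for Lilrb4a over Gp49a to 3.76 and for Siglece and Cd33 over Siglech to 14.8, against 5.47. Leaving Gp49a out of the other inhibitory receptors was also chosen after seeing the data. Of the 8 genes called between libraries, 0 were called by edgeR's exact test at an assumed coefficient of variation of 0.1 and 0 with a ratio of at least 1.5-fold. Scaling by total counts turned the log2 ratio of Pirb, which was not called, to 0.0024, against -0.013. DESeq2 size factors and both count filters left the number called at 8. The filters could remove none of the 10 genes, since even Siglece had 1170 and 1038 counts, so they are a weak check. A threshold of 5 TPM was passed by all 10 genes and one of 20 TPM by 5, against 7 for 10 TPM. With 10 genes in all, the lower threshold could not have moved this number far. The share of all genes passing 5 or 20 TPM is not given here. Leaving out either library gives the other's value, which lies within the SD of 2 values by construction and is no check on stability, and the test between libraries needs both. No paired analysis was possible because the 2 libraries form a single group. Precision is limited by n = 2 and by the quantification's division of reads among overlapping transcripts and near-identical relatives.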
